A study of Mus musculus with 9 samples.

Results

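The 10 genes described here encode enzymes and small proteins that handle reactive oxygen, electrophiles, haem and metal ions: Hmox1, Nqo1, Gclc, Gclm, Txnrd1, Srxn1, Mt1, Mt2, Prdx1 and Sod2. They were taken by gene symbol from a table of 35673 genes, all 10 were present, and all 10 passed the filter on low counts together with 21341 genes in all. RNA was sequenced in bulk from basophils that had been grown from the bone marrow of wild-type C57BL/6J mice over 7 days in 0.3 ng/mL of interleukin-3 (IL-3) and enriched on the surface protein CD49b with magnetic particles. Each library came from 10000 cells kept for 4 hours under 1 condition, and each of the 3 conditions has 3 libraries. The difamilast group received IL-3 and interleukin-33 (IL-33) at 10 ng/mL each together with 3 µM difamilast, an inhibitor of phosphodiesterase 4, the enzyme family that breaks down cyclic AMP in immune cells. The stimulated group received the same cytokines with the vehicle DMSO, and the resting group received PBS with DMSO. All groups thus carried low-dose IL-3 in their culture history, and resting cells given difamilast were not analysed here. Whether the libraries of a group stem from different cultures or mice is not stated, so p-values here reflect only how much these libraries vary, which may be technical.

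Many of these genes are known targets of the transcription factor NRF2 (gene Nfe2l2), which is held low by KEAP1 in unstressed cells and, once freed by electrophiles or oxidants, binds antioxidant response elements (AREs) together with small MAF proteins. BACH1 occupies the same elements as a repressor until haem releases it, and Hmox1 is the gene best known to answer to it. Mt1 and Mt2 encode metallothioneins, cysteine-rich proteins that bind zinc and copper; in mice they are switched on by metal-responsive factor 1 (MTF1) through metal response elements (MREs) and by glucocorticoids. Sod2 encodes the manganese superoxide dismutase of mitochondria and is a classic target of NF-kB.

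The promoters of 4 genes are shown as pairs that share an element. Mt1 and Mt2 hold several MRE cores and were both lower in the cytokine-treated groups than in resting libraries. Txnrd1 and Prdx1 hold an ARE core each. In difamilast over resting libraries Txnrd1 was called higher and Prdx1 lower (log2 fold change 0.94 and -1.35). In stimulated over resting libraries the rise of Txnrd1 was called only by a narrow margin, and in difamilast over stimulated libraries Prdx1 did not pass. The sequences are those of RefSeq on GRCm38.p6, 250 bases before to 50 bases after the gene start, 5′ to 3′. RefSeq promoters matched 8 of the 10 genes. None was matched for Hmox1 or Gclc, so the elements of these genes were not examined. Capitals mark the MRE core (TGCGCNC or TGCACNC, both strands) in Mt1 (chr8:94178839-94179138, plus strand) and Mt2 (chr8:94172368-94172667, plus strand), and the ARE core (TGACNNNGC, both strands) in the second of 3 Txnrd1 promoters (chr10:82858956-82859255, plus strand) and in Prdx1 (chr4:116685349-116685648, plus strand).
Mt1: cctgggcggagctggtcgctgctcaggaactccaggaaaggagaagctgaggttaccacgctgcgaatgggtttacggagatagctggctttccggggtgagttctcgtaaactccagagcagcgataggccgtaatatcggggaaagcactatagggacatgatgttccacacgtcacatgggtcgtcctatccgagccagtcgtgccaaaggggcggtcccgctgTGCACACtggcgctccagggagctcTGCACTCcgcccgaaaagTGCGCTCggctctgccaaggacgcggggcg
Mt2: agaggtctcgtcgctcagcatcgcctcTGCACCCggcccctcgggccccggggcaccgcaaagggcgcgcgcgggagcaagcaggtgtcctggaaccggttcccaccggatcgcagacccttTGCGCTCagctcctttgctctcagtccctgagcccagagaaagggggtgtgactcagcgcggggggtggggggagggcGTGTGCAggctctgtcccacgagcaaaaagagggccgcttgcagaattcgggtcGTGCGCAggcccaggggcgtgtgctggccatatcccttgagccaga
Txnrd1: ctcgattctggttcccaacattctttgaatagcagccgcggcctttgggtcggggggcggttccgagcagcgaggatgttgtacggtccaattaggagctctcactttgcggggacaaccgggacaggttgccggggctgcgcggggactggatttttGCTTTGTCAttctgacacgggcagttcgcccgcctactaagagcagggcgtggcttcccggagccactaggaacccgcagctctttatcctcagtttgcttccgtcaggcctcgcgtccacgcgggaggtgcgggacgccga
Prdx1: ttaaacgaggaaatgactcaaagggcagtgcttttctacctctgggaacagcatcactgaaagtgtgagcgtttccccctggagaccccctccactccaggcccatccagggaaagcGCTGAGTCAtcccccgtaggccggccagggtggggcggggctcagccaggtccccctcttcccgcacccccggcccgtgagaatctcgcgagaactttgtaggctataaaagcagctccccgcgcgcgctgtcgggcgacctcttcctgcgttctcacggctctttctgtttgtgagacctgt
Mt1 held 3 and Mt2 held 4 MRE cores. They were not alone in this, as Gclm also held 3 and Srxn1 held 1. Of all 32851 promoters of that length, 25.7% held the MRE core, 1.97% at least 3 copies and 0.517% at least 4. The ARE core was found in 12.4% of promoters. Apart from Txnrd1 and Prdx1 it stood once each in the windows of Gclm, Srxn1 and Mt2, and was not among the letters of those of Nqo1, Mt1 and Sod2. In Prdx1 and in Mt2 it overlaps a TGAGTCA site (AP-1; both strands), which 5.2% of promoters hold. Srxn1 and Prdx1 held 2 such sites each, in Srxn1 at positions -102 and -45 and in Prdx1 at -237 and -131 from the first base of the gene. The cyclic AMP response element palindrome TGACGTCA, in 1.79% of promoters, was in none of the 8 genes' windows. A match describes letters and not binding.

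Libraries held between 6261446 and 38098584 counts, the resting ones being the shallowest on average. All 12 basophil markers had counts in every library; their summed level was 14358 to 14920 CPM (read counts scaled to a common library size with TMM factors) with difamilast, 12552 to 13412 in stimulated and 7204 to 8290.1 in resting libraries, led by the histamine-forming enzyme gene Hdc and the protease gene Mcpt8. All 16 monocyte and macrophage markers also had counts in every library, with sums of 5374 to 5828 CPM with difamilast, 5614 to 6018 in stimulated and 7244 to 8936 in resting libraries, led by Lyz2 and Apoe; none was at 0. Erythroid markers summed to at most 63.4 CPM in any library and NK cell markers to at most 36.1 CPM, and every marker of both lists had a count in at least 1 library; neutrophil markers summed to at most 222 CPM and mast cell markers to at most 912 CPM. Resting replicate 1 stood apart in its yield by transcript length. Among genes of at least 10 CPM, transcripts of 750 to 1000 bases lay at a median of -0.44 (log2) from the resting mean in that library, against 0.24 and 0.15 in resting replicates 2 and 3. Difamilast replicate 3 held more of transcripts under 750 bases, at 0.41 from its group mean, against -0.22 and -0.18 in replicates 1 and 2.

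**Figure D1:**
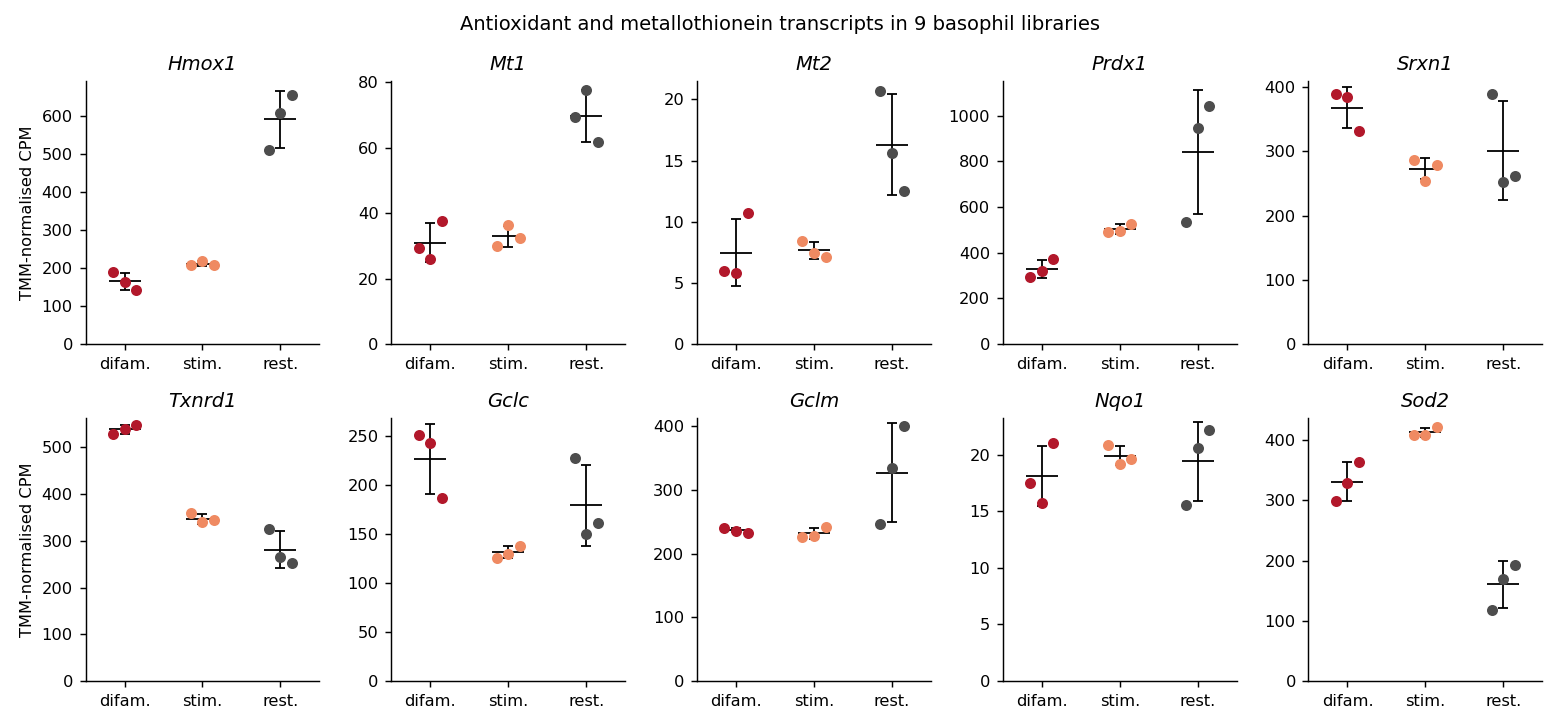
Level of each of the 10 genes in every library, in TMM-normalised CPM on axes that start at 0, with difamilast, stimulated and resting libraries from left to right; points are libraries 1 to 3 and black marks are the mean ± SD (n = 3). Hmox1, Mt1 and Mt2 are highest in resting, Sod2 in stimulated and Txnrd1 in difamilast libraries, and the widest spread is within the resting group, where library 1 is the highest for Gclc, Srxn1 and Txnrd1 and the lowest for Prdx1, Gclm and Sod2.

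The comparison of stimulated with resting libraries shows what IL-3 with IL-33 did to these transcripts in vehicle. Haem oxygenase and both metallothioneins fell to less than 50% of their resting level, the peroxiredoxin gene Prdx1 and both subunit genes of glutamate-cysteine ligase fell less, Sod2 rose and Txnrd1 rose slightly. In edgeR's quasi-likelihood test, with p-values adjusted by Benjamini-Hochberg over all tested genes, 8 of the 10 genes passed at 0.05, 2 higher and 6 lower, beside 31.7% of all tested genes (15.3% higher and 16.4% lower). Without stimulated replicate 2 the count was 5. The libraries of both groups did not overlap for the same 8 genes, and for 43.7% of all tested genes. The median log2 fold change was -0.48 over the 10 genes and 0.06 over all tested genes.

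Hmox1 (chromosome 8, 75093621 to 75100589, GRCm38) encodes the inducible haem oxygenase, which cuts haem into biliverdin, iron and carbon monoxide. Its level was 207, 219 and 209 CPM in stimulated replicates 1 to 3, against 509.6, 607 and 655 CPM in resting replicates 1 to 3. The groups were far apart, and the lowest resting library stood above every stimulated one. The log2 fold change was -1.48 ± 0.12 (SE; adjusted p = 2.15e-07), 2.79-fold lower, and it passed under all 17 alternative settings, between -1.61 and -1.43. Hmox1 is also strongly expressed by macrophages, and the summed monocyte and macrophage markers were lower in the stimulated libraries too, with 9 of 16 called lower and 1 higher. In bulk RNA, fewer cells of a type and less RNA per cell cannot be told apart; the part of those cells in the fall of Hmox1 was not tested.

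The metallothionein genes Mt1 (chromosome 8, 94179082 to 94180327) and Mt2 (94172664 to 94173568) are neighbours on the same strand, with 5513 bases between them. Mt1 had 29.9, 36.4 and 32.3 CPM in stimulated libraries, against 69.4, 77.7 and 61.7 CPM in resting libraries. Mt2 had 8.47, 7.48 and 7.14 CPM in stimulated libraries, against 20.7, 15.6 and 12.5 CPM in resting ones. No stimulated library reached the lowest resting library for either gene. The log2 fold changes were -1.08 ± 0.15 for Mt1 (SE; adjusted p = 4.11e-05) and -1.10 ± 0.24 for Mt2 (adjusted p = 0.00249), 2.12-fold and 2.15-fold lower, and both passed under all 17 alternatives. Per transcript length Mt1 stood above Mt2 by a similar factor in each group, 3.06 ± 0.495 in stimulated and 3.14 ± 0.656 in resting libraries (SD, n = 3 each). Mt2 rested on few reads, 89 to 252 in stimulated and 99 to 296 in resting libraries. An exon of Gm45774 on the opposite strand overlaps Mt2, and since the use of strand is not given, reads of both may be mixed; Gm45774 itself held 93 counts over all libraries against 1789 of Mt2.

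Prdx1 (chromosome 4, 116685544 to 116700822) encodes peroxiredoxin 1, an abundant thiol enzyme of the cytosol that reduces hydrogen peroxide. It had 490.0, 495 and 527 CPM in stimulated libraries, against 533, 946 and 1041 CPM in resting ones. All stimulated libraries were below all resting ones, but resting replicate 1 lay close to them. The log2 fold change was -0.74 ± 0.18 (SE; adjusted p = 0.00627), and between -1.01 and -0.59 over the alternatives, all of which passed; it was -1.01 without resting replicate 1. Near-identical copies of Prdx1, the longest matching over 597 bases at 98.3% identity, held counts equal to 5.88% of its own, so some reads could be shared.

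Glutamate-cysteine ligase makes the first and limiting step of glutathione synthesis, with Gclc (chromosome 9, 77754535 to 77794485) encoding the catalytic and Gclm (chromosome 3, 122245557 to 122270732) the modifier subunit. Gclc had 125, 129 and 137 CPM in stimulated libraries, against 227, 149.9 and 161 CPM in resting libraries. Gclm had 226, 227 and 242 CPM in stimulated libraries, against 247, 334 and 401 CPM in resting libraries. For neither gene did the groups overlap, and the resting library that was highest for Gclc, replicate 1, was the lowest for Gclm. The log2 fold change of Gclc was -0.46 ± 0.15 (SE; adjusted p = 0.0307). It missed the threshold when resting replicate 1 was left out (-0.28, adjusted p = 0.0586), and likewise without stimulated replicate 1 (adjusted p = 0.0781), 2 (0.091) or 3 (0.0616). That of Gclm was -0.50 ± 0.14 (adjusted p = 0.0121), which missed the threshold without stimulated replicate 2 (adjusted p = 0.0509).

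Sod2 (chromosome 17, 13006846 to 13040063) was the member that rose most. It had 409, 409 and 422 CPM in stimulated libraries, against 118, 169.7 and 193 CPM in resting libraries. Every stimulated library exceeded the highest resting library by more than 2-fold. The log2 fold change was 1.37 ± 0.15 (SE; adjusted p = 3.96e-06), 2.58-fold higher, and between 1.16 and 1.49 over the alternatives, which all passed. Stretches of its transcript match 12 other genes, the longest over 193 bases at 95.3% identity, so some of its reads could be shared. The matching genes held counts equal to 69.1% of those of Sod2.

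Txnrd1 (chromosome 10, 82833951 to 82897712) encodes the cytosolic thioredoxin reductase, a selenoprotein that passes electrons from NADPH to thioredoxin, and Srxn1 (chromosome 2, 152105516 to 152111376) encodes sulfiredoxin, which repairs overoxidised peroxiredoxins. Txnrd1 had 359, 339.7 and 344 CPM in stimulated libraries, against 326, 265 and 253 CPM in resting libraries. The groups did not overlap, yet the gap to resting replicate 1 was small. Its log2 fold change of 0.30 ± 0.11 (SE; adjusted p = 0.0398) was called by a narrow margin. It was not called in 12 of 17 alternatives. Those were RLE scaling (adjusted p = 0.0964), DESeq2 (0.0912), no filter on low counts (0.0983), the replicate number as a block (0.0507), a fit of only the 2 groups (0.0602), and the fits without resting replicate 2 (0.191) or 3 (0.229), stimulated replicate 1 (0.202), 2 (0.0851) or 3 (0.0889), or difamilast replicate 1 (0.062) or 2 (0.0611). Srxn1 had 286, 254 and 279 CPM in stimulated libraries, against 389, 252 and 261 CPM in resting libraries, and its groups overlapped (log2 fold change -0.14 ± 0.15, adjusted p = 0.505; 0.06 without resting replicate 1). Nqo1 (chromosome 8, 107388225 to 107403206), the quinone reductase gene often used as the model NRF2 target, was low throughout. It had 20.8, 19.2 and 19.6 CPM in stimulated libraries, against 15.5, 20.6 and 22.2 CPM in resting libraries, which overlapped (log2 fold change 0.04 ± 0.16, adjusted p = 0.893; -0.14 without resting replicate 1).

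**Figure D2:**
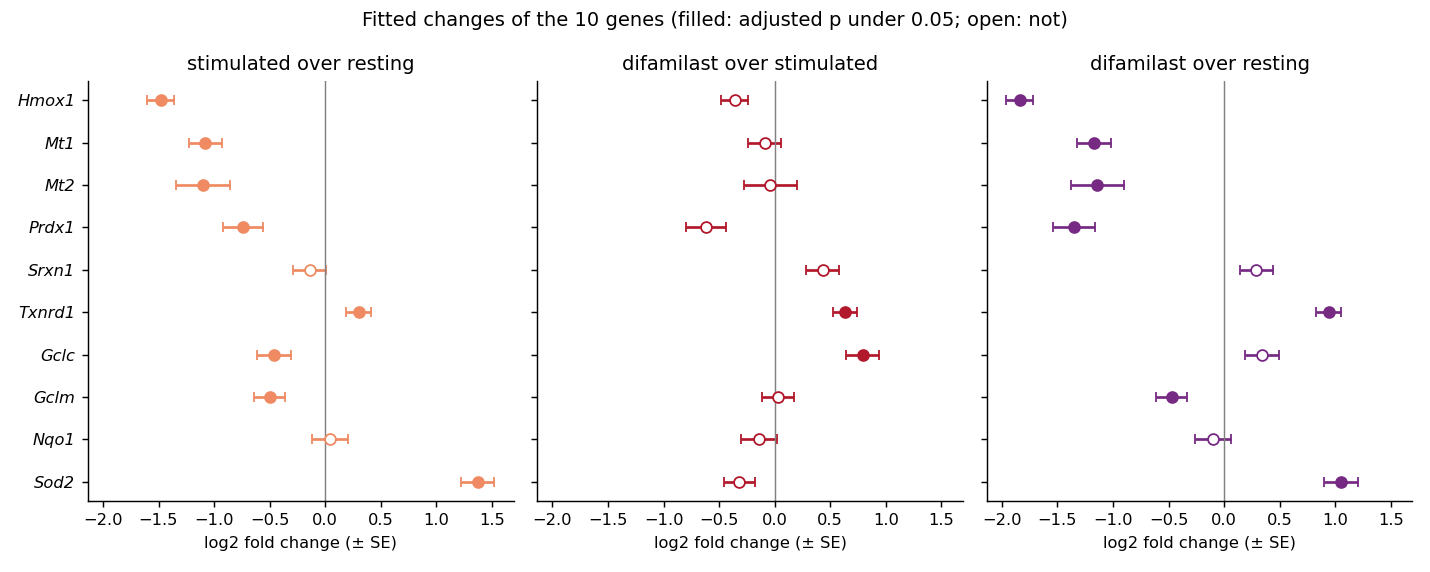
Log2 fold change ± SE of the 10 genes from the fit of all 9 libraries, for stimulated over resting, difamilast over stimulated and difamilast over resting libraries; filled points passed an adjusted p of 0.05. With stimulation 6 genes passed as lower and 2 as higher, and with difamilast in stimulated cells Gclc (0.79) and Txnrd1 (0.63) passed, both higher.

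Difamilast and vehicle libraries, both given the cytokines, show what the inhibitor changed on top of them. Gclc and Txnrd1 rose, and none of the other 8 genes passed. Those 2 calls of 10 stand beside 3.44% of all tested genes (2.21% higher and 1.24% lower). The median log2 fold change was -0.06 over the 10 genes and 0 over all tested genes. Leaving out stimulated replicate 1 gave 1 call, and leaving out resting replicate 1, which belongs to neither group of this comparison but to the fit of all libraries, gave 6, 3 higher and 3 lower. This comparison shares the stimulated libraries with the previous one, so opposite changes in both are not independent of each other.

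Gclc had 251, 242 and 186 CPM with difamilast, against 125, 129 and 137 CPM in stimulated libraries. The difamilast libraries lay above all stimulated ones, replicate 3 being the lowest of them. The log2 fold change was 0.79 ± 0.15 (SE; edgeR adjusted p = 0.00616), 1.73-fold higher, and between 0.72 and 0.92 over the alternatives; it missed the threshold without stimulated replicate 1 (0.77, adjusted p = 0.0535). The partner subunit gene Gclm had 239.9, 236 and 233 CPM with difamilast, against 226, 227 and 242 CPM in stimulated libraries, which overlapped (log2 fold change 0.03 ± 0.14, adjusted p = 0.954). Per transcript length, the ratio of Gclc to Gclm within a library was accordingly 1.01, 0.987 and 0.767 with difamilast, against 0.533, 0.55 and 0.547 in stimulated libraries. In resting libraries that ratio was 0.883, 0.433 and 0.387, so resting replicate 1 reached into the difamilast range.

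Txnrd1 had 529, 540.0 and 547 CPM with difamilast, against 359, 339.7 and 344 CPM in stimulated libraries. The libraries of each group lay close together and the groups far apart. The log2 fold change was 0.63 ± 0.11 (SE; adjusted p = 0.00235), 1.55-fold higher, and it passed under all 17 alternatives, with adjusted p from 4.4e-06 to 0.0259. Srxn1 showed 389, 385 and 331 CPM with difamilast, against 286, 254 and 279 CPM in stimulated libraries, also without overlap. Its log2 fold change of 0.43 ± 0.15 did not pass (adjusted p = 0.145), and it passed in 3 of 17 alternatives: without a filter on low counts (adjusted p = 0.00831), in a fit of only the 2 groups (0.00485) and without resting replicate 1 (0.00147).

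Prdx1, Hmox1 and Sod2 had lower values with difamilast in every library without passing the test. Prdx1 had 295, 319 and 371 CPM with difamilast, against 490.0, 495 and 527 CPM in stimulated libraries (log2 fold change -0.62 ± 0.18, adjusted p = 0.0899). It passed in 6 of 17 alternatives, among them the fits without resting replicate 1 (adjusted p = 9.7e-05) and with DESeq2 (0.039). Over all alternatives the adjusted p ran from 6.12e-05 to 0.363. Annotated Prdx1 transcripts run from 877 to 2294 bases, and the length trend was removed at their median of 1585.5. Genes of 750 to 1000 bases lay at a median log2 fold change of -0.33 in this comparison. Which Prdx1 transcript the cells used, and the part of its length in these lower values, was not tested. Hmox1 had 189, 163 and 143 CPM with difamilast, against 207, 219 and 209 CPM in stimulated libraries (log2 fold change -0.36 ± 0.12, adjusted p = 0.147), and Sod2 had 299.5, 329 and 363 CPM with difamilast, against 409, 409 and 422 CPM in stimulated libraries (-0.32 ± 0.14, adjusted p = 0.315). Each passed in a fit of only the 2 groups (adjusted p = 0.0303 for Hmox1 and 0.0224 for Sod2) and without resting replicate 1 (0.0158 and 0.0202). In total the libraries of both groups were apart for 6 of the 10 genes, 3 higher and 3 lower, as they were for 24.8% of all tested genes.

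The metallothioneins and Nqo1 gave no detectable difference between these groups. Mt1 had 29.3, 26.1 and 37.7 CPM with difamilast, against 29.9, 36.4 and 32.3 CPM in stimulated libraries (log2 fold change -0.09 ± 0.15, adjusted p = 0.847). Mt2 had 5.95, 5.85 and 10.7 CPM with difamilast, against 8.47, 7.48 and 7.14 CPM in stimulated libraries (-0.04 ± 0.24, adjusted p = 0.969). For both, difamilast replicate 3 was the highest library of its group. These are the shortest transcripts of the set, with median lengths of 633 and 449.5 bases, and genes under 750 bases lay at a median log2 fold change of -0.32 in this comparison. With the length trend taken out, the values were 0.10 for Mt1 and 0.15 for Mt2, neither of which passed (adjusted p = 0.782 and 0.827). Nqo1 had 17.5, 15.7 and 21.0 CPM with difamilast, against 20.8, 19.2 and 19.6 CPM in stimulated libraries (-0.14 ± 0.16, adjusted p = 0.764).

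**Figure D3:**
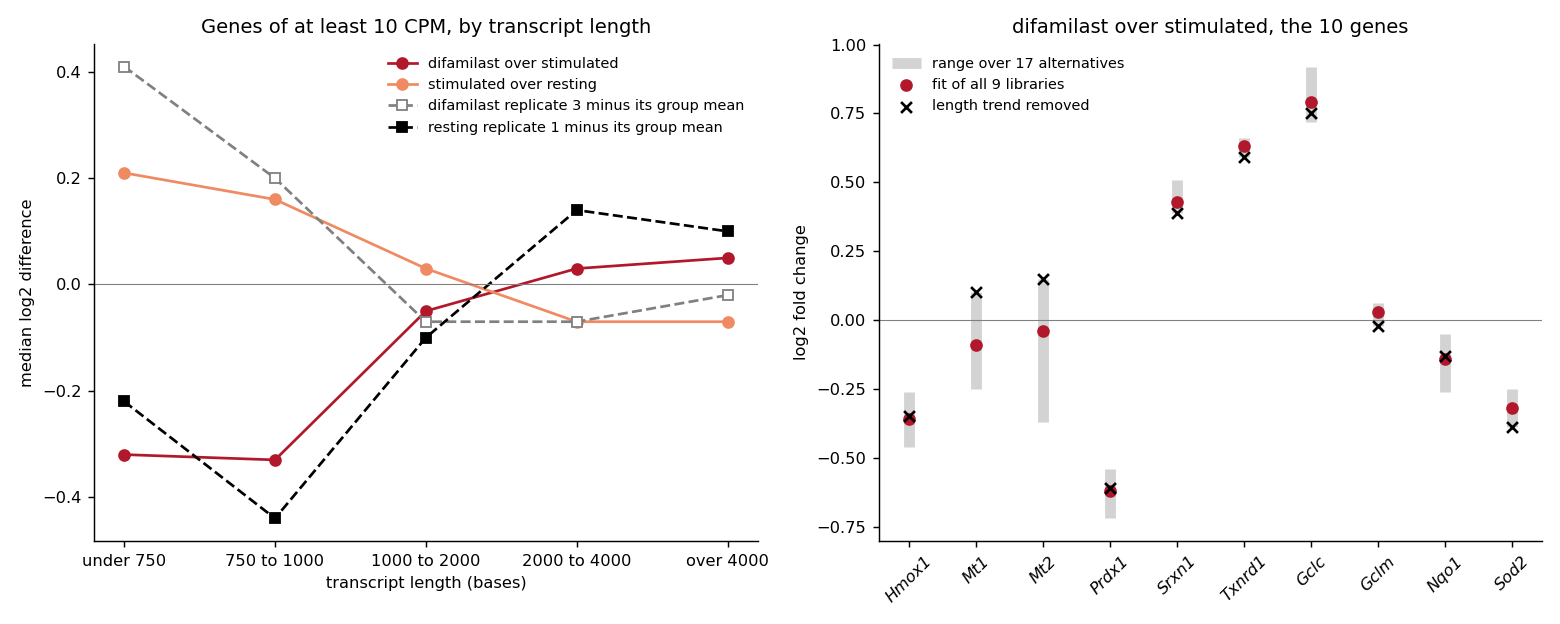
Left, median log2 difference of genes of at least 10 CPM by transcript length for difamilast over stimulated (-0.32 under 750 bases) and stimulated over resting libraries (0.21), and for difamilast replicate 3 and resting replicate 1 minus their group means. Right, log2 fold change of the 10 genes for difamilast over stimulated libraries, with the range over 17 alternatives as a grey bar and the value after removal of the length trend as a cross; Gclc and Txnrd1 stay above 0 and Prdx1 below 0 in all of them, and Mt1 and Mt2 lie on either side of 0.

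Set against resting cells, cells given cytokines and difamilast together differed in 7 of the 10 genes, 2 higher and 5 lower, beside 32.8% of all tested genes. Those 7 genes were also the ones whose libraries did not overlap, as for 42.9% of all tested genes. Hmox1 was 3.58-fold lower (log2 fold change -1.84 ± 0.12, adjusted p = 2.1e-08) and Prdx1 2.56-fold lower (-1.35 ± 0.19, adjusted p = 4.57e-05). Mt1 and Mt2 were 2.25-fold and 2.2-fold lower, close to the values without the drug. Txnrd1 was 1.91-fold higher (0.94 ± 0.11, adjusted p = 7.21e-06) and Sod2 2.06-fold higher (1.05 ± 0.15, adjusted p = 5.73e-05). Gclm was lower (-0.47 ± 0.14, adjusted p = 0.0167), a call lost when resting replicate 3 (0.0644) or difamilast replicate 2 (0.0543) was left out, and in a fit of only these groups (0.051). Gclc overlapped with resting libraries (0.34 ± 0.15, adjusted p = 0.101); it passed when resting replicate 1 (0.51, adjusted p = 0.00152) or the third difamilast library (0.0304) was left out, after removal of the length trend (0.0369) and without a filter on low counts (0.0409). Srxn1 overlapped likewise (0.29 ± 0.15, adjusted p = 0.14) and passed without resting replicate 1 (0.49, adjusted p = 0.000319). With resting replicate 2 or 3 left out instead, the values were smaller, 0.18 and 0.23 for Gclc and 0.14 and 0.17 for Srxn1, and none passed (adjusted p = 0.429, 0.335, 0.542 and 0.474).

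On a scale per kilobase of transcript, Prdx1 was the most abundant of the 10 transcripts in each group, at 207 ± 24.6 CPM per kb with difamilast, 318 ± 12.6 in stimulated and 529.8 ± 170.2 in resting libraries (SD, n = 3 each), and Nqo1 the least, at 11.6 ± 1.72 with difamilast, 12.8 ± 0.538 in stimulated and 12.5 ± 2.24 in resting libraries. The order between them differed by group. In resting libraries Hmox1 (377 ± 47.3 CPM per kb) came next to Prdx1, whose range it overlapped through resting replicate 1, and Sod2 (27.4 ± 6.56) stood above Nqo1 alone. In stimulated libraries Sod2 (70.5 ± 1.27) held the same range as Gclm (70.3 ± 2.67). With difamilast Txnrd1 (157 ± 2.7) came second, clear of Prdx1 above it and of Srxn1 (131 ± 11.5) below it. Among neighbours in this order, ranges overlapped for 5 of 9 pairs with difamilast, 2 of 9 in stimulated and 6 of 9 in resting libraries. Lengths are medians over annotated transcripts, so a level per kilobase depends on which of them the cells use; the Sod2 transcript in the annotation is 5861 bases long.

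The genes most like each called member were sought among 7975 genes of at least 10 CPM, by the root mean square difference of log2 CPM, centred on each gene's mean, over the 9 libraries. Nearest to Hmox1 was Rbfa (0.13), nearest to Sod2 were Psme1 and the basophil protease gene Mcpt8 (0.10 each), and nearest to Prdx1 was the glutathione peroxidase gene Gpx1 (0.12). Txnrd1 was most like Arl5b and Synj1 (0.09 each), Gclc most like Soat1 (0.07) and Ccng2 (0.08), and Gclm most like Stx4a (0.06). Mt1 was most like Foxo4 (0.10), and Mt2 most like Cybb (0.17), the catalytic subunit gene of the phagocyte NADPH oxidase. Within the set, Mt1 was the 9th nearest gene to Mt2 and Mt2 the 84th nearest to Mt1 (0.22). The member nearest to Gclc was Srxn1 (0.18, the 35th nearest gene), and the member nearest to Sod2 was Txnrd1 (0.55, the 2047th).

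Around the 10 genes, 94 other tested genes of 9 redox, haem and metal lists gave 15 higher and 36 lower calls with stimulation, beside 15.3% higher and 16.4% lower among all tested genes, so that the higher calls were near the share of all genes. Their median log2 fold change was -0.36, beside 0.06 over all tested genes. The lists describe known biology and were chosen with earlier results of these data known. Of 12 other quinone and carbonyl enzyme and exporter genes, 9 fell and 1 rose; Nqo2, a paralogue of Nqo1, had 9.58 CPM on average in stimulated and 58.3 CPM in resting libraries (6.03-fold lower, adjusted p = 1.72e-09), and the aldehyde dehydrogenase gene Aldh2 was 2.11-fold lower, while the exporter gene Abcc1 was 2.17-fold higher. Nqo2 shares 764 bases of annotated transcript with Serpinb6a, so its counts may hold reads of both. Serpinb6a held counts equal to 167% of those of Nqo2. Of 9 NADPH supply genes, 7 fell, with Idh1 2.8-fold and the pentose phosphate gene Taldo1 2.05-fold lower. Me1, at 1.59 CPM in stimulated and 0.76 CPM in resting libraries, was called higher (adjusted p = 0.0491); its near-identical copies may share reads, and in 13 of 17 alternatives no gene of that list was called higher, among them the fits without resting replicate 1 or 3, stimulated replicate 2 or 3, or any difamilast replicate.

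Of 12 other haem and iron genes, 2 were higher and 5 lower with stimulation; the share called higher was near that of all tested genes. The ferritin heavy chain gene Fth1 was 3.72-fold higher (adjusted p = 5.56e-07) and the light chain gene Ftl1 1.58-fold higher, though near-identical copies of Ftl1 may share its reads. The haem transporter gene Slc48a1 was 1.83-fold lower and the iron exporter gene Slc40a1 3.91-fold lower. Of 10 other zinc genes, 2 were higher and 2 lower, near the 15.3% and 16.4% of all tested genes. The importer gene Slc39a8 had 33.3 CPM in stimulated and 4.53 CPM in resting libraries (7.28-fold higher, adjusted p = 3.46e-09), and Slc30a4 was 2.74-fold higher. The exporter gene Slc30a1, like Mt1 a known MTF1 target, was 1.87-fold lower (adjusted p = 0.000312), and Slc30a7 1.41-fold lower. Of 7 tested NADPH oxidase genes, 3 rose and 3 fell. Among them, Ncf1 was 3.56-fold and Rac2 2.25-fold higher, while Cybb was 2.13-fold lower. The summed monocyte and macrophage markers were lower in stimulated libraries too. As for Hmox1, the part of those cells in the falls of Slc40a1 and Cybb was not tested.

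Among 17 other glutathione genes, 2 rose and 4 fell with stimulation, beside 15.3% higher and 16.4% lower among all tested genes. The same shares stand beside the counts of the thioredoxin, superoxide and NRF2 regulator lists below. None of these small counts was tested against them. Glutathione reductase (Gsr) was 2.68-fold and the glutaredoxin gene Glrx 2.23-fold higher, while the glutathione synthetase gene Gss was 1.86-fold and Gpx1 1.77-fold lower. Of 13 other thioredoxin and peroxiredoxin genes, 1 rose and 4 fell, with Prdx5 2.95-fold higher, Prdx6 1.7-fold lower and Txnip, whose protein binds thioredoxin, 2.02-fold lower. Catalase (Cat) was 1.81-fold lower and the single call among 4 other superoxide and peroxide genes. Of the 10 NRF2 regulator genes, Maff was 4.18-fold higher (adjusted p = 3.49e-08), the KEAP1-binding autophagy receptor gene Sqstm1 2.01-fold and Nfe2l1 1.34-fold higher, and Keap1 1.4-fold lower (adjusted p = 0.0168). Nfe2l2 itself had 193 CPM in stimulated and 184 CPM in resting libraries (log2 fold change 0.07 ± 0.09, adjusted p = 0.612), and Bach1 had 109 CPM in stimulated and 92.2 CPM in resting libraries (0.24 ± 0.12, adjusted p = 0.128). Bach2, Mafg, Mafk and Cul3 had log2 fold changes of -0.13, -0.05, -0.10 and 0.17 and did not pass (adjusted p = 0.495, 0.755, 0.651 and 0.363).

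With difamilast, 5 of the 94 other genes rose and 3 fell relative to stimulated cells, beside 2.21% higher and 1.24% lower among all tested genes. Their median log2 fold change was -0.09, beside 0 over all tested genes. Both chains of the cystine importer system xc- were higher. Slc7a11 had 294 CPM with difamilast and 176 CPM in stimulated libraries (1.67-fold higher, edgeR adjusted p = 0.000324). Slc3a2 had 1008 CPM with difamilast and 676 CPM in stimulated libraries (1.49-fold higher, adjusted p = 0.0116). Stretches of both transcripts match other genes, Slc7a11 over up to 375 bases and Slc3a2 over up to 182 bases, so their counts may include reads of those. The matching genes held counts equal to 227% of those of Slc7a11 and 808% of those of Slc3a2. Aldh2 and the UDP-glucose dehydrogenase gene Ugdh were 1.42-fold and 1.43-fold higher, and Prdx6 was 1.35-fold higher. Gsr was 1.44-fold lower (edgeR adjusted p = 0.0104), Prdx5 2.02-fold lower (adjusted p = 0.0116) and Gstp1 1.9-fold lower (adjusted p = 0.0129), the last with reads that its near-identical copy Gstp2 may share. Prdx5 had 319, 349.7 and 574 CPM and Gstp1 24.5, 30.7 and 39.9 CPM in difamilast replicates 1 to 3, so replicate 3 was the highest for both. Genes under 750 bases lay at a median log2 fold change of -0.32 in this comparison. The part of transcript length in the falls of Prdx5 and Gstp1 was not tested. None of the 10 NRF2 regulator genes passed; Nfe2l2 had 224 CPM with difamilast and 193 CPM in stimulated libraries (log2 fold change 0.21 ± 0.09, adjusted p = 0.278) and Bach2 had 28.2 CPM with difamilast and 20.5 CPM in stimulated libraries (0.47 ± 0.13, adjusted p = 0.0753), Bach2 sharing sequence with other genes. Their median was -0.08; 4 of the 10 had an unadjusted p under 0.05 (Nfe2l2, Bach1, Bach2 and Maff), DESeq2 called 2 higher and limma-voom 1. In the superoxide, NADPH supply, haem and iron, and zinc lists edgeR called no gene in this comparison, with 1, 0, 1 and 2 non-members at an unadjusted p under 0.05; DESeq2 called 1 haem and iron gene and 1 zinc gene lower, and limma-voom 1 haem and iron gene lower. The calls in the quinone and carbonyl list rest on every library of the comparison but difamilast replicate 3: leaving out any 1 of the other 5 gave 0 calls there.

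**Figure D4:**
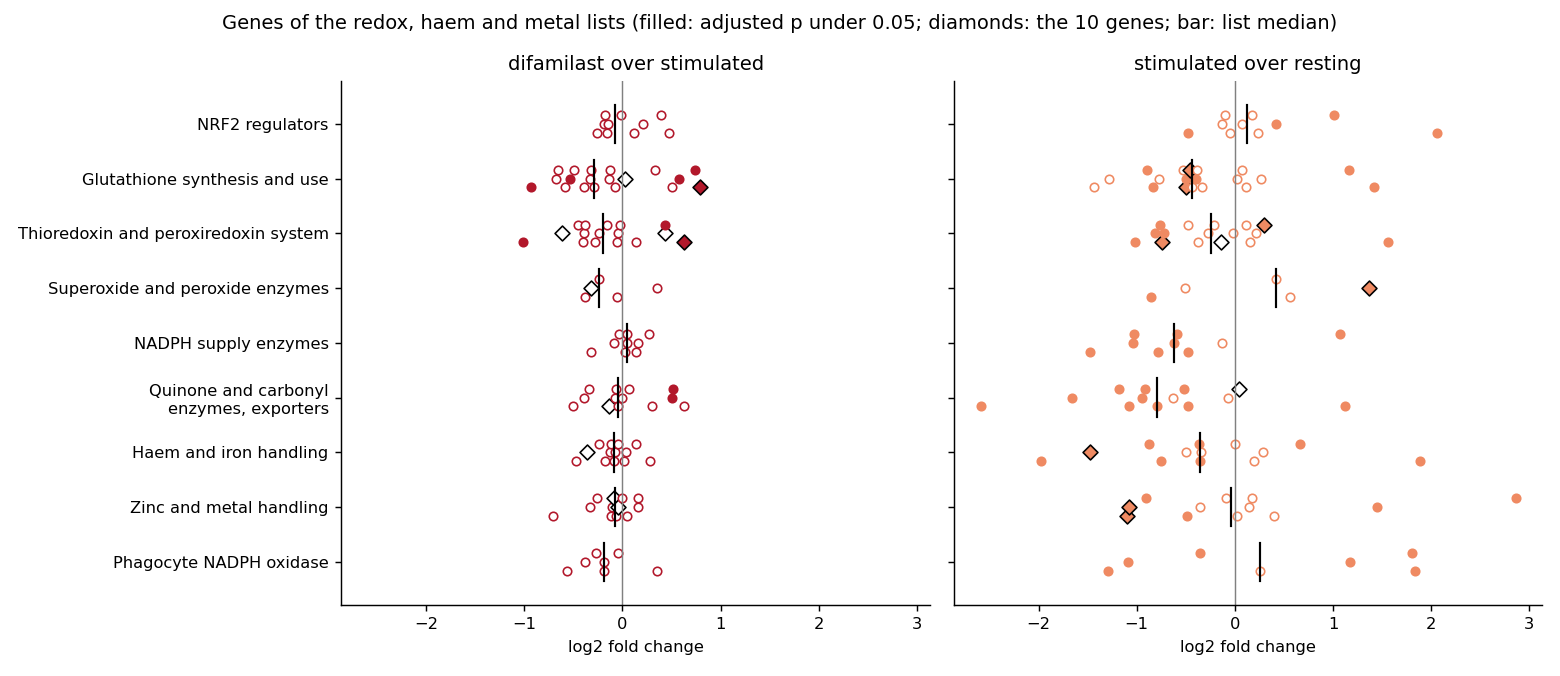
Log2 fold change of every tested gene of the 9 lists for difamilast over stimulated (left) and stimulated over resting libraries (right); filled points passed an adjusted p of 0.05, diamonds are the 10 genes and bars are list medians. With stimulation the quinone and carbonyl list (median -0.79, Nqo1 included) and the NADPH supply list (-0.62) lie mostly below 0, and with difamilast few points are filled, among them Gclc and Txnrd1.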

How the data were processed

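The authors deposited raw read counts per gene symbol for 9 bulk RNA-seq libraries in a single table. Per the labels' protocols, mRNA was bound to oligo-dT beads, reverse transcribed, put through 2 rounds of TAS-Seq amplification and fragmented. Molecular identifiers are not mentioned, so PCR duplicates may be counted. Per the submitters' processing notes, cutadapt 4.1, Bowtie2 2.4.5 and GRCm38 were used. What counted the reads, on which annotation and whether by strand, is not given here.

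Groups came from the sample titles. Counts were tested with edgeR 4.0.16 (R 4.3.3, statmod 1.5.0): TMM scaling, filterByExpr (minimum count 10, minimum total 15), robust dispersion and quasi-likelihood tests in 1 fit of 9 libraries with 6 residual degrees of freedom, Benjamini-Hochberg adjustment over 21341 genes, called at 0.05. Levels are TMM-normalised CPM, as mean ± SD over 3 libraries. In replicates 1 to 3 the TMM factors were 1.32, 1.23 and 1.26 for resting libraries. They were 0.892, 0.885 and 0.871 for stimulated and 0.916, 0.911 and 0.851 for difamilast libraries. The scaling thus lowers resting levels relative to both other groups, and no fit without scaling was run. A change as small as the rise of Txnrd1 with stimulation depends on these factors. Total counts ran from 6261446 to 38098584. Replicate pairs differed by more than sampling noise (chi-square per degree of freedom 4.28 to 43.3), so all libraries were counted. Transcript lengths are medians from the GENCODE vM21 basic set, held by 96.8% of tested genes.

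Alternatives were DESeq2 1.42.0, limma-voom (limma 3.58.1), RLE scaling, no filter, the 2 groups alone, a replicate block, thinning to the shallowest library, removal of a lowess trend with length (span 0.3), and each library left out. The fit was tested on simulated data, with changes planted in genes drawn at random from all tested ones. For stimulated over resting libraries it recovered 13.4% of them at 1.5-fold, 65.7% at 2-fold and 84.8% at 4-fold. For difamilast over stimulated libraries it recovered 16.4%, 56.7% and 83.3%. Changes of 1.5-fold were thus mostly missed among genes of all levels. Recovery at the levels of the 10 members was not tested. A gene that did not pass may still have changed. Named are the 10 members, per list up to 2 genes called each way in each of the first 2 comparisons, all NRF2 regulators, and the 2 genes most like each called member; 1 gene that this rule names is not reported here. Members and lists were chosen with earlier results of these data known.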

Additional observations from a re-analysis of the deposited data

How the results depend on the processing

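Directions of the 10 genes held under all 17 alternatives except where the change was near 0. For stimulation, the log2 fold change of Nqo1 was -0.01 with RLE scaling and with DESeq2 and between -0.14 and 0.10 with 1 library left out, and that of Srxn1 was between -0.29 and 0.06 with 1 left out. For difamilast over stimulated libraries, removal of the length trend gave -0.02 for Gclm, 0.10 for Mt1 and 0.15 for Mt2, thinning gave 0.01 for Mt1 and 0.00 for Mt2, and leaving out 1 library gave -0.25 to 0.02 for Mt1 and -0.37 to 0.11 for Mt2. The count of genes called with difamilast over stimulated libraries, 735, was 1351 without a filter on low counts, 1673 in a fit of only the 2 groups, 1117 with DESeq2 and between 347 and 1693 with 1 library left out (403, 347 and 1138 for difamilast libraries 1 to 3, 379, 387 and 446 for the stimulated ones in that order, and 1693 for resting replicate 1); of the 10 members, 4 passed without a filter, 6 in the fit of 2 groups, and 1 to 6 with 1 library left out. With stimulation, 5 to 8 members passed with 1 library left out. The cause of these shifts was not tested. Same-numbered libraries did not deviate together (correlations from -0.08 to 0.11), and not every library correlated best with its own number; with the replicate number as a block, 7, 3 and 7 members passed for stimulated over resting, difamilast over stimulated and difamilast over resting libraries, and 6489, 700 and 6652 genes. Mt2 rests on the fewest reads of the 10 genes and has the largest standard error, 0.24 on the log2 scale.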
